A study of Mus musculus with 2 samples.

Results

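The Dlx and Msx genes encode homeodomain transcription factors, and 8 of them, Dlx1 to Dlx6, Msx1 and Msx2, were compared between Venus-positive and Venus-negative cells of the mouse embryo. Members were the probe sets of the array whose annotation names exactly 1 symbol and whose symbol is one of these 8. The rule found 12 probe sets, of 34945 with exactly 1 symbol and 45101 in all. Dlx3, Dlx4, Msx1 and Msx2 have a pair of probe sets each and the other genes have 1. The cells came from embryos of Col2a1-Venus-Tg mice on a C57Bl/6 background, in which the reporter Venus, a green fluorescent protein derivative, labels chondrocytes, the cells of cartilage. Both fractions carry the transgene and were separated by fluorescence-activated cell sorting; Venus-positive cells are the labelled fraction and Venus-negative cells the other. RNA from either fraction went onto 1 microarray (Affymetrix Mouse Genome 430 2.0), a platform on which short probes are summarised to 1 signal per probe set. The sources used here do not give embryonic stage, number of embryos, body region or sorting gates.

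With 1 array per fraction there is no replicate error, no test was possible, and the number of arrays limits the precision. Every fold below describes this pair of arrays. The signal of Col2a1, whose reporter was used for the sort, was 605.6 in Venus-negative and 8443 in Venus-positive cells, and all 8 chondrocyte markers checked were at least 4.73-fold higher in Venus-positive cells, so the labels of the arrays match their content. In place of detection calls, which were not used here, a floor of 22.5 was set, the median signal over both arrays without control probe sets, and lower signals were raised to it before taking log2. Genes with a probe set at or over the floor on either array count as measured, represented by their brightest one. Where only 1 array passed the floor, "at least" marks the fold as a lower bound, and where neither did no fold is given. The Venus-positive array was dimmer for the typical gene: over 11789 measured genes the median log2 ratio, with Venus-positive signal in the numerator as in all ratios below, was -0.33. Log2 ratios called relative have this median subtracted.

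Homeodomain proteins bind short DNA motifs with a TAAT core. In vertebrates most Dlx genes lie in adjacent pairs that share enhancers, and they pattern the pharyngeal arches, limb buds, teeth and forebrain. DLX5 and DLX6 promote chondrocyte maturation and bone formation. MSX1 and MSX2 act mainly as repressors, are induced by bone morphogenetic proteins (BMPs), and keep mesenchymal progenitors of limb and face undifferentiated.

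The members divided by direction, on arrays where 77.3% of all measured genes had a log2 ratio below 0. Dlx3, Dlx5 and Dlx6 had the higher signal in Venus-positive cells, Dlx2, Msx1 and Msx2 had the higher signal in Venus-negative cells, and Dlx1 and Dlx4 stayed below the floor on both arrays. Of the 6 genes measured, none was shown to be higher in Venus-positive cells by 2-fold or more on the deposited scale, as 2.79% of all measured genes were; the folds of Dlx3 and Dlx6 are lower bounds and may exceed that size. Msx1 was the 1 member lower by 2-fold or more, as 11.6% of all measured genes were. Relative to the median gene, Dlx3 and Dlx5 passed the 2-fold size as higher (5.06% of all measured genes did) and Msx1 as lower (6.45%). Dlx3 and Dlx6 reached the floor through the Venus-positive array alone and could therefore only be counted as higher. The median log2 ratio of the 6 measured genes was 0.02, against -0.33 over all measured genes, and it lies between the 2 directions and describes neither.

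**Figure D1:**
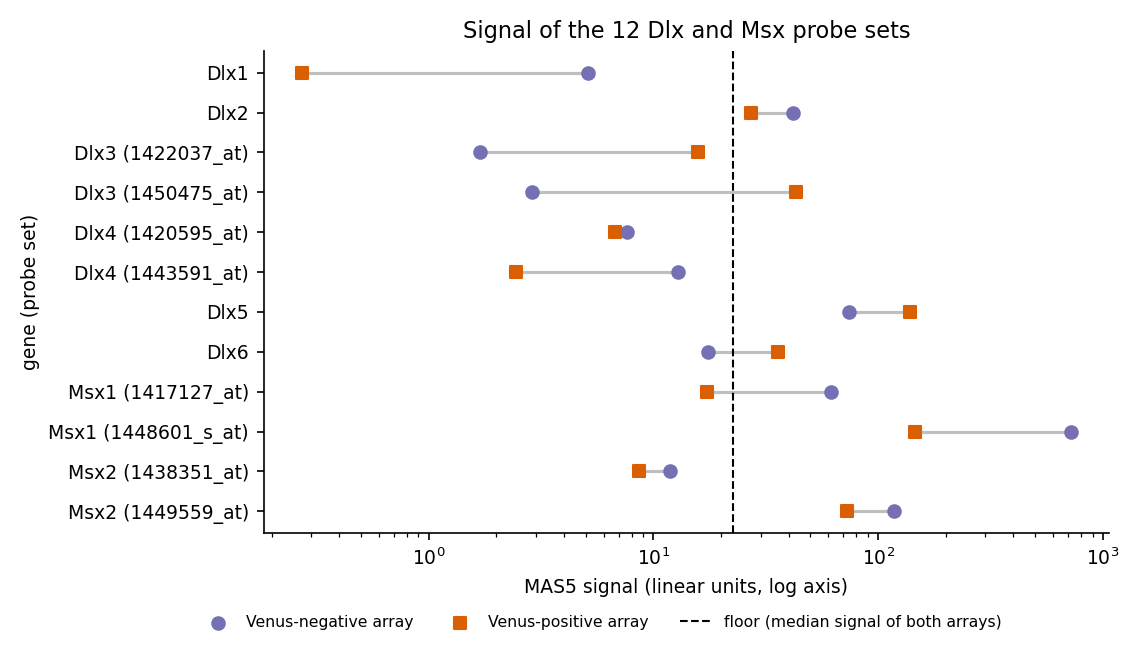
MAS5 signal (log axis) of each of the 12 Dlx and Msx probe sets on the Venus-negative array (circles) and the Venus-positive array (squares), with 1 array per fraction and no error bars; the dashed line is the floor of 22.5. Both Msx1 probe sets lie to the left on the Venus-positive array, Dlx5 lies to the right on it, and both values of Dlx1 and of Dlx4 lie below the floor.

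Msx1 had the largest difference among the 4 members with both arrays above the floor. Its brighter probe set (1448601_s_at) had a signal of 720.4 in Venus-negative and 146 in Venus-positive cells. Both values were well over the floor, and the Venus-positive one was 4.93-fold lower, a log2 ratio of -2.30 and a relative log2 ratio of -1.97. Only 1.35% of all measured genes had a lower ratio. The second probe set (1417127_at) read 61.6 in Venus-negative and 17.3 in Venus-positive cells, the latter below the floor, and was at least 2.74-fold lower. The probe sets thus gave the same direction, with log2 ratios of -2.30 and -1.45. Their gap of sizes cannot be read as a difference between transcripts, since the second value is a bound. The suffix _s_at marks a probe set whose probes can match more than 1 transcript, and the second probe set does not carry it.

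Msx2, the paralog with an overlapping role in limb, skull and tooth development, differed less. Its measured probe set (1449559_at) was at 118.1 in Venus-negative and 72.9 in Venus-positive cells, 1.62-fold lower, a log2 ratio of -0.70. Relative to the median gene the log2 ratio was -0.37, about the size of the pooled disagreement (standard deviation 0.34) among log2 ratios that several probe sets give for 1 gene, a figure with no error between samples in it. Its other probe set (1438351_at) read 11.8 and 8.62, below the floor in both fractions. The pair of Msx genes thus had the same sign, on arrays where 77.3% of all measured genes had a log2 ratio below 0. A 2-fold difference was measured for Msx1 alone.

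Dlx2, active in forebrain and arch mesenchyme, was at 41.8 in Venus-negative and 27.2 in Venus-positive cells. This is 1.54-fold lower, a log2 ratio of -0.62 and a relative log2 ratio of -0.29, less than the pooled spread between probe sets. Both signals were near the floor, and 26.5% of all measured genes had a lower ratio. Its genomic neighbour Dlx1 read 5.11 in Venus-negative and 0.27 in Venus-positive cells, which is below the floor on both arrays, so no direction can be given for this pair as a whole.

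The RefSeq start-site sequences used here (build GRCm38.p6) cover 4 of the 8 members, Dlx1, Dlx2, Msx1 and Msx2. The 250 bases before the annotated start of the 3 members with lower signal in Venus-positive cells are shown 5′ to 3′ on the strand of the gene, to let their sequence be set beside the shared direction. Capitals mark matches, on either strand, to TAATT (a homeodomain core), CCAAT (the CCAAT box), GGGCGG (the GC box) or TATAAA (the TATA box).
Msx1, chr5:37824586-37824835, minus strand: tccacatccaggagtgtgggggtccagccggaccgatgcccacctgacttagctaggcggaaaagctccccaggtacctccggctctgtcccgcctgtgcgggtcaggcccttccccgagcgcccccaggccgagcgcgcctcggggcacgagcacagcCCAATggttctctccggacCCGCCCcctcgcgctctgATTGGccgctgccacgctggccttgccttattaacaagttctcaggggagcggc
Msx2, chr13:53472781-53473030, minus strand: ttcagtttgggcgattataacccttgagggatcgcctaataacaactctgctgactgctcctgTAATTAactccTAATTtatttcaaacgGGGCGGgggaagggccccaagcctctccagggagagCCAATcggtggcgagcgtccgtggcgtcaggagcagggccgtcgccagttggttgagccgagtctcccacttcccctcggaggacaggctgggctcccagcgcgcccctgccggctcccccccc
Dlx2, chr2:71546755-71547004, minus strand: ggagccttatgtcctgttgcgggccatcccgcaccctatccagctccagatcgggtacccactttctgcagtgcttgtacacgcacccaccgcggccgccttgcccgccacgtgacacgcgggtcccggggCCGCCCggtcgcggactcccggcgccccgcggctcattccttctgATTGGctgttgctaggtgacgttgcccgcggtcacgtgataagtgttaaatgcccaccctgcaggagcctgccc

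The upstream stretch of Msx2 held 3 matches to TAATT, of which 2 overlap on opposite strands in the run TAATTA, whereas those of Msx1 and Dlx2 held none. Over all 32851 RefSeq start-site entries, 25% held the motif in the same window. A CCAAT match was present in all 3, with 2 in Msx1, 1 in Msx2 and 1 in Dlx2, against 33.8% of all entries, and each held 1 GC box, against 32.7%. TATAAA, present in 12.4% of all entries, occurred in none of them. GC content was 68.0% for Msx1, 61.6% for Msx2 and 66.4% for Dlx2, and the median over all entries was 52.4%. The same window of Dlx1, which was below the floor on both arrays, held no match to any of these motifs. Dlx3, Dlx5 and Dlx6 have no entry, so the matches cannot be compared between the directions. These matches describe letters in a window and were not tested as binding sites.

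Dlx5, a factor of chondrocyte and osteoblast differentiation, had a signal of 74.4 in Venus-negative and 139.1 in Venus-positive cells. It was the only member with a higher Venus-positive signal and both values above the floor, and the difference was 1.87-fold, a log2 ratio of 0.90. Relative to the median gene the log2 ratio was 1.23, or 2.35-fold, and 96.7% of all measured genes had a lower ratio. Dlx5 rests on 1 probe set (1449863_a_at, the suffix of which marks several transcripts of the same gene).

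Dlx6, the neighbour of Dlx5, was at 17.4 in Venus-negative and 35.8 in Venus-positive cells. The Venus-negative value was below the floor, and Dlx6 was at least 1.59-fold higher in Venus-positive cells, a log2 ratio of 0.67. On the relative scale the log2 ratio was 1.0, a value that before rounding fell just below the 2-fold size. Since Dlx6 passed the floor through the Venus-positive array alone, its direction could only match that of Dlx5. A non-coding transcript of the locus, Dlx6os1 (also known as Evf2, a regulator of Dlx5 and Dlx6 in forebrain), has a probe set of its own. It read 15.4 and 26.5 and was at least 1.18-fold higher in Venus-positive cells, just over the floor there. The other listed transcripts of Dlx loci, Dlx1as, Dlx4os and Dlx6os2, and the third Msx gene, Msx3, were below the floor on both arrays.

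Dlx3, best known from epidermis, hair, placenta, tooth and bone, was at 2.89 in Venus-negative and 43.3 in Venus-positive cells on 1 probe set (1450475_at). The floor limits the fold to at least 1.92, a log2 ratio of 0.94 and a relative log2 ratio of 1.28. The second probe set of Dlx3 (1422037_at) read 1.69 and 15.8, below the floor on both arrays, so neither a direction nor a fold is given. Dlx4, the neighbour of Dlx3, read 7.66 and 6.75 on 1 probe set and 12.9 and 2.45 on the other in Venus-negative and Venus-positive cells. All 4 values were below the floor. Of the 3 adjacent Dlx pairs, Dlx5 with Dlx6 was the one in which both genes were measured.

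**Figure D2:**
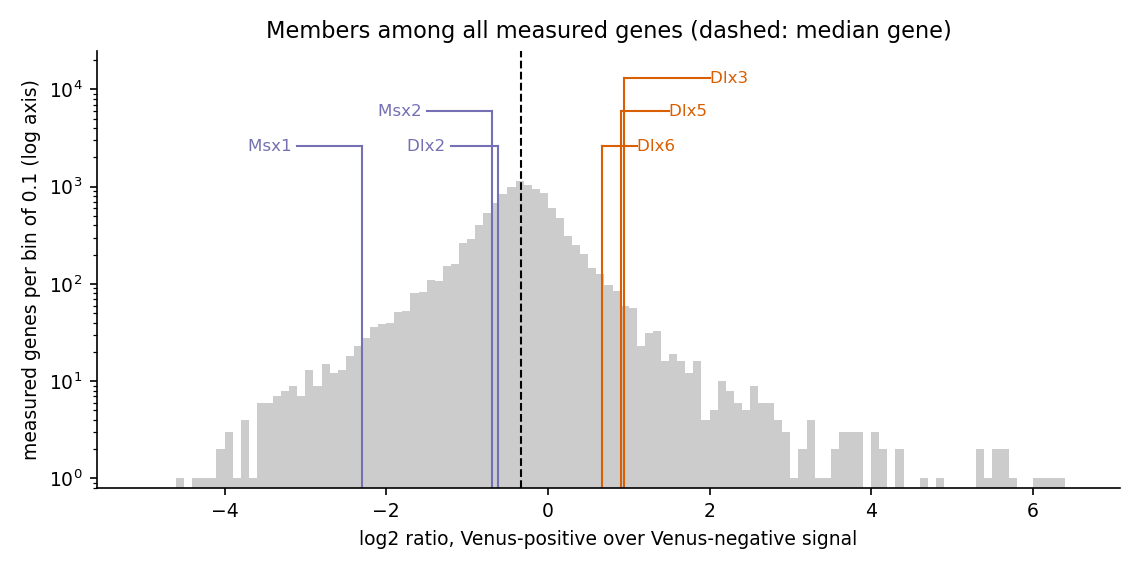
Number of measured genes (log axis) per bin of 0.1 in the log2 ratio (Venus-positive over Venus-negative), for all 11789 measured genes, with the 6 measured Dlx and Msx genes as vertical lines and the median gene (-0.33) dashed. Msx1 at -2.30 lies in the lower tail, Msx2 and Dlx2 lie near the middle, and Dlx6, Dlx5 and Dlx3 lie between 0.67 and 0.94 on the upper side; the values of Dlx3 and Dlx6 are bounds.

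Among homeobox genes outside the Dlx and Msx families, most had lower signal in Venus-positive cells, as did most genes on these arrays. The list of 140 genes, which also holds Msx3, had 73 measured, none of them Msx3. Of the 73, 65 had a log2 ratio below 0, against 77.3% of all measured genes, and relative to the median gene 48 were below and 25 above. On the deposited scale 26 were lower by 2-fold or more and 1, Barx1 (at least 4.71-fold), was higher by that size, against 17 and 2 relative to the median gene. Their median log2 ratio was -0.64, or -0.31 relative to the median gene. With the floor applied, Dlx5 had 1 of the 73 above it, Msx1 had 3 below it (Hoxb3, Meox2 and Hoxc5), and Dlx2 and Msx2 had 37 and 35 below them. Places among these genes depend on the floor, since 23 of the 73 are bounds, and Dlx3 and Dlx6, also bounds, could lie only on the upper side.

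For the 4 members with both arrays above the floor, the other homeobox genes with the nearest log2 ratio were taken from 50 genes also above it on both arrays; likeness is the absolute difference of 2 log2 ratios and rests on the same 2 arrays. Msx1 was nearest to Emx2 (a difference of 0.04) and Meox2 (0.08), which were at 124.9 and 965 in Venus-negative and 25.9 and 185.4 in Venus-positive cells. Dlx5 was nearest to Hoxd9 (0.26) and Hoxc9 (0.39), both with lower ratios than its own. Dlx2 was nearest to Irx2 (0.01) and Hoxa7 (0.04), and Msx2 to Hoxb2 (0.02) and Hoxa7 (0.04).

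**Figure D3:**
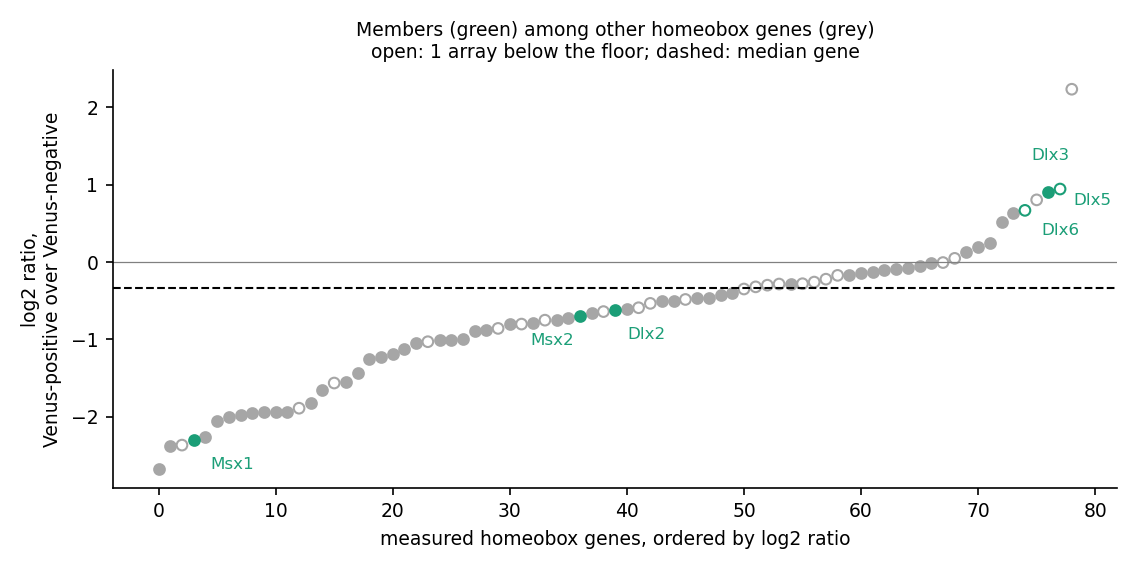
Log2 ratio (Venus-positive over Venus-negative) of the 6 measured Dlx and Msx genes (green) and 73 other measured homeobox genes (grey), in order of the ratio; open circles are bounds, with 1 array below the floor, and the dashed line is the median gene. Dlx5 has 1 grey point above it and Msx1 has 3 below it, while the places of Dlx3 and Dlx6 follow from the floor.

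BMP signals induce Msx and several Dlx genes. Of the measured genes of that pathway, 11 had a log2 ratio above 0 and 10 below it, as 77.3% of all measured genes were. Relative to the median gene, 14 lay above and 7 below. Of 21 measured BMP genes, 5 were higher in Venus-positive cells by 2-fold or more and none was lower by that size, against 8 and none relative to the median gene. Their median relative log2 ratio was 0.60. The ligand genes Bmp5 (151.3 in Venus-negative and 399.8 in Venus-positive cells) and Bmp6 (23.9 and 56.2) were 2.64-fold and 2.35-fold higher. The ligand gene Bmp2 was at 966.4 and 1717, and Bmp4, the ligand most often linked to Msx induction, was at 296.1 and 180.7, 1.64-fold lower. Smad1, which carries the BMP signal to the nucleus, had the lowest ratio of the list (1082 and 638), 1.70-fold lower, and the antagonist gene Chrd (41.3 and 25.4) was 1.63-fold lower. Smad5, Bmpr1a, Acvr1, Grem1 and Smad4 had log2 ratios from -0.47 to -0.32, though other probe sets of Acvr1 and Smad4 gave 0.07 and 0.27. The receptor gene Bmpr1b was 2.61-fold higher, and the antagonist gene Nog (7.23 and 47.5) at least 2.11-fold higher.

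The direct BMP target Id1, an inhibitor of basic helix-loop-helix factors, was at 1685 in Venus-negative and 2750 in Venus-positive cells, 1.63-fold higher. Id4 was 2.55-fold higher, and Id2 and Id3 differed less, at 1.20-fold and 1.22-fold higher. Another probe set of Id2 gave a log2 ratio of 0.77. The inhibitory Smad genes Smad6 and Smad7, also induced by BMP signals, were 1.55-fold and 1.93-fold higher, though another probe set of Smad7 gave a log2 ratio of -0.22. Msx1 and Msx2, on the same arrays, were 4.93-fold and 1.62-fold lower.

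Genes that DLX or MSX proteins regulate or bind in skeletal cells gave few values. Of 5 measured, 3 were higher in Venus-positive cells by 2-fold or more (4 relative to the median gene) and none was lower by that size. Sp7 and Col10a1, which make up 2 of these 3, passed the floor through the Venus-positive array alone and could only be counted as higher. Sp7, the osteoblast and prehypertrophic factor activated by DLX5, was at 19.5 and 95.7 in Venus-negative and Venus-positive cells, at least 4.25-fold higher. Ibsp, the bone sialoprotein gene, was 3.02-fold higher (119.7 and 361), and Col10a1, the collagen of hypertrophic cartilage, was at least 2.14-fold higher, with a Venus-positive signal of 48.1. Alpl, the phosphatase of mineralizing cells, was at 26.5 and 45.5. Maged1, whose product binds DLX5 and MSX2, was at 2218 and 2422, a relative log2 ratio of 0.46. Runx2, Bglap and Spp1, which belong to this group, had no probe set with a symbol of its own and were not analysed here.

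In the endothelin, Dlx and Hand2 programme of the pharyngeal arches, genes lay on both sides. Of 7 measured, 2 were higher and 3 lower by 2-fold or more on the deposited scale, against 3 and 1 relative to the median gene. Barx1 (13.7 and 105.9) and Pou3f3 (104.1 and 286.4), which are both active in arch mesenchyme, were at least 4.71-fold and 2.75-fold higher in Venus-positive cells. Hand2, which represses Dlx5 and Dlx6 in the distal jaw and acts in the limb bud, was at 607.1 and 261.7, 2.32-fold lower. Tfap2a, a factor of ectoderm and neural crest, was 3.72-fold lower on its brightest probe set, while another of its 3 measured probe sets gave a log2 ratio of -0.02. Edn1, the ligand upstream of Dlx5 and Dlx6 in the arches, was at 36.3 and 1.85, at least 1.61-fold lower.

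Genes of undifferentiated limb and face mesenchyme, where Msx1 is active, had mostly lower signal, as it did. All 14 measured genes had a log2 ratio below 0, as 77.3% of all measured genes did, and 10 lay below the median gene. Of the 14, 9 were lower by 2-fold or more (7 relative to the median gene); the median relative log2 ratio was -1.01. Prrx2 (357.9 and 93.1) was 3.85-fold, Lhx2 (308.3 and 80.2) 3.84-fold, Lmx1b 3.82-fold and Twist1, a partner gene of Msx2 in skull development, 3.31-fold lower. Shox2 (1167 and 1103), Pitx1, Tbx4 and Shh lay above the median gene. The place of Shh (23.4 and 17.2) depends on the floor, since its Venus-positive signal was below it. Other probe sets of Shox2 and Pitx1 gave log2 ratios of -0.41 and -0.50, below the median gene (-0.33).

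Limb ectoderm and apical ridge, where Dlx5, Dlx6, Msx1 and Msx2 are also active, gave few values. Of 4 measured genes, 2 were lower by 2-fold or more on either scale and none was higher. Trp63, the ectodermal p63 factor that activates Dlx5 and Dlx6 there, was at 143.6 and 21.2, at least 6.38-fold lower, and Rspo2 was 4.50-fold lower. Fgf4 (23.8 and 25.6) and Wnt7a (23.2 and 8.94) were close to the floor. Fgf8, Sp6, Sp8, En1 and Wnt3 were below the floor on both arrays.

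**Figure D4:**
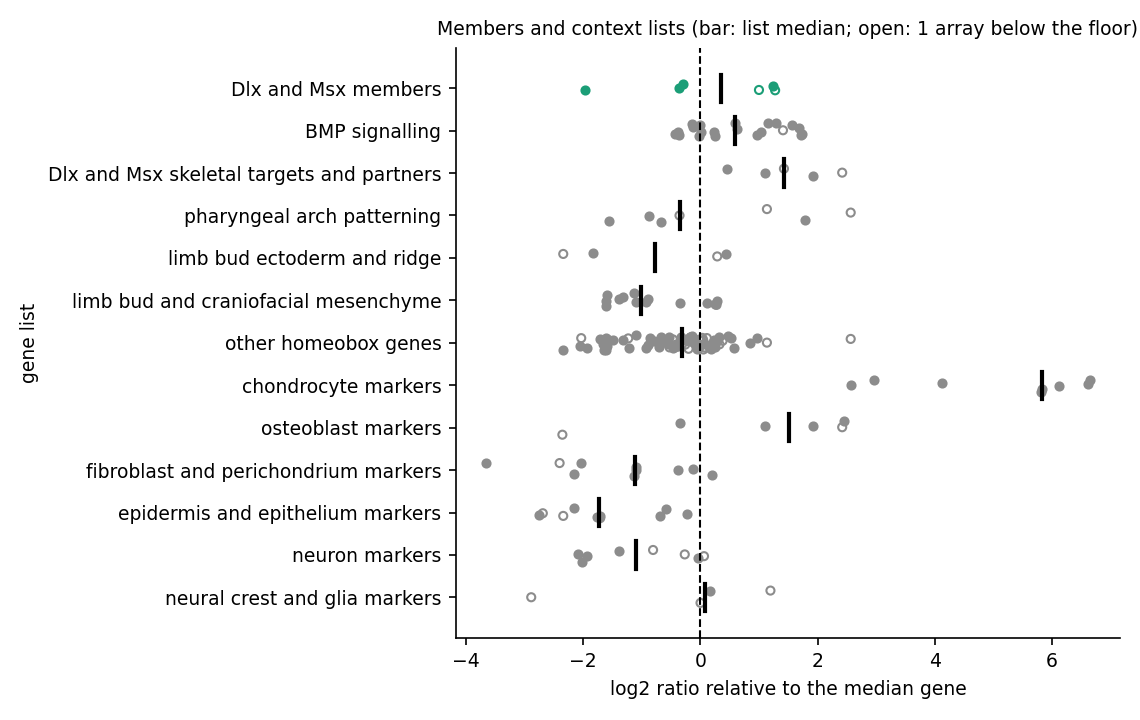
Log2 ratio relative to the median gene (dashed, at 0) of each measured gene in the Dlx and Msx families (green) and in 12 other lists (grey); open circles are bounds and black bars are list medians. The members fall on both sides of the median gene, with Dlx3, Dlx5 and Dlx6 from 1.0 to 1.28. Msx1 at -1.97 lies below every value of limb and face mesenchyme, where Prrx2 is lowest at -1.61 (list median -1.01).

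Markers of other cell types moved with the members' directions as follows; their part in the results was not tested, and in bulk RNA fewer cells of a type and less RNA per cell cannot be told apart. Of 10 fibroblast and perichondrium markers, 7 had a Venus-positive signal lower by 2-fold or more, with summed signals of 23143 in Venus-negative and 10664 in Venus-positive cells. Msx1 and these markers thus had the same direction. Dcn (decorin, a fibroblast proteoglycan) was 15.9-fold and Postn (periostin) 5.16-fold lower, with no marker at 0. Skeletal muscle markers were lower by 2-fold or more for 6 of 7 genes, with sums of 3936 and 291.5. Erythroid and leukocyte markers were lower by that size for all 6, with sums of 5119 and 419.9.

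Markers of epidermis and epithelium, a known site of Dlx3, had lower signal in Venus-positive cells. Of 10 measured, 8 had a Venus-positive signal lower by 2-fold or more and none was higher, with summed signals of 1995 and 534.4, and Krt14, Krt15 and Trp63 were below the floor in Venus-positive cells. Dlx3 was above the floor in that fraction alone and could only be counted as higher, so its direction cannot be set against that of these markers. Osteoblast markers were mixed: of 6 measured, 3 were higher and 1 lower by 2-fold or more, with sums of 2239 and 1830. Ifitm5, an osteoblast membrane protein gene, was 4.33-fold higher, as was Sp7 by at least 4.25-fold, while Phex was at least 6.45-fold and Col1a1 1.60-fold lower.

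Forebrain GABAergic neurons express Dlx1, Dlx2, Dlx5 and Dlx6, and of 5 such markers with a probe set Gad1, Gad2, Slc32a1 and Lhx6 were below the floor on both arrays. Isl1, which is active in many other cells, was the exception at 150.7 and 66.2. Of 8 general neuron markers, 5 had a Venus-positive signal lower by 2-fold or more, with sums of 952.8 and 257.7. Dlx5 was higher in Venus-positive cells, and Dlx6 could only be counted as higher. Dlx2 was lower there, but relative to the median gene by less than the pooled spread between probe sets. Of 4 measured markers of neural crest and glia, Ednrb was at least 9.32-fold lower, with a log2 ratio of -0.32 on another of its 3 measured probe sets. None of the other 3 was shown to differ by 2-fold on the deposited scale, Sox10 and Foxd3 being bounds, and the sums were 440.4 and 229.8. Sox10 was at 16.7 and 41, at least 1.82-fold higher.

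**Figure D5:**
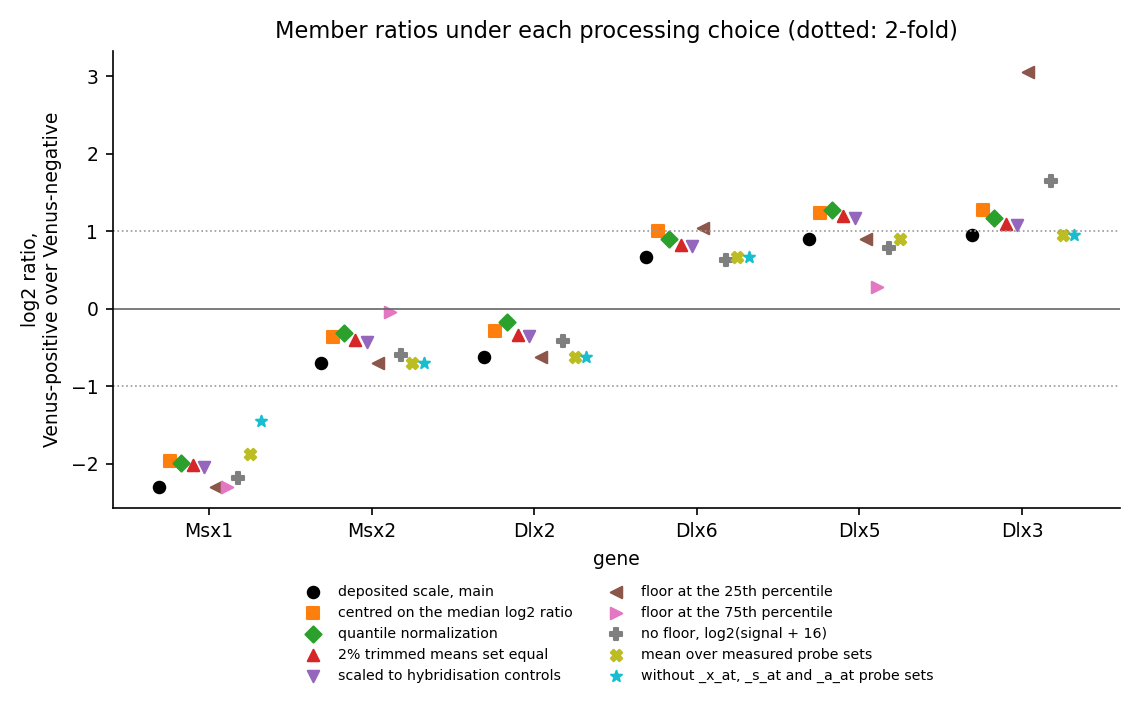
Log2 ratio (Venus-positive over Venus-negative) of the 6 measured genes under the main setting (black) and up to 9 other processing choices (symbols in the legend); dotted lines mark 2-fold. No member crosses 0, Msx1 stays past 2-fold with values from -2.30 to -1.45, and Dlx3, Dlx5 and Dlx6 each lie above the upper line under some choices and below it under others.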

How the data were processed

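Signal intensity was deposited by the authors as 1 linear value per probe set and array, with MAS5 named in the submitters' processing notes. The sources used here give no version, scaling target or detection calls. Per the labels' protocols, biotinylated cRNA was made from 100 ng of total RNA. MAS5 corrects perfect-match probes by their mismatch probes, and low values are its least certain ones.

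Groups were taken from the labelled cell type. Control probe sets (64) were set aside; of the other 45037, 34945 had 1 gene symbol in the platform annotation, 932 several and 9160 none, and symbols of all 8 members equalled those of RefSeq (GRCm38.p6) by gene identifier. Signals were raised to a floor, the median over both arrays without controls (22.5). Sizes of 2-fold were counted, and no p-value was computed, since there was 1 array per group. Trimmed mean signals (2% at each end) were 133 and 109. The 9 alternatives changed the scale, the floor or the probe set. The procedure was tested on simulated data, with large changes given to genes whose signals were well above the floor. Smaller differences and bounds, as for most measured members, were not covered by that test.

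Members, lists and the rule for named genes were chosen with earlier results of these data known. All members were named. The rule allowed the BMP and skeletal target genes, the 4 genes of every other list with the largest absolute log2 ratio and the 2 homeobox genes nearest to each member; not all of these are printed. Shox2, Pitx1, Tbx4, Shh, Edn1, Col2a1, Col1a1, Krt15 and genes below the floor were named in addition after their values were seen. Python 3.11.15, numpy 2.4.6, pandas 2.3.3 and matplotlib 3.10.9 were used.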

Additional observations from a re-analysis of the deposited data

How the results depend on the processing

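No paired analysis was possible because each fraction had 1 array. Ratios that moved by under 0.34, the pooled disagreement between probe sets of 1 gene, were taken as kept. Of 50 recomputed ratios of measured members, 40 were kept, 10 moved further and none changed sign. Many of the 40 could only be kept. Centring, equal trimmed means and scaling to hybridisation controls rescale the whole array by less than this limit. Members with 1 measured probe set could not move under the choices of probe set. The number of members at least 2-fold higher, none on the deposited scale, was 2 (Dlx3 and Dlx5) after centring, quantile normalization, equal trimmed means or scaling to hybridisation controls, 2 (Dlx3 and Dlx6) when the floor was the 25th percentile, and 1 (Dlx3) without a floor, on log2(signal + 16). The number at least 2-fold lower was 2 with the lowest floor, where Dlx4 was measured with a log2 ratio of -1.31. It was 1, Msx1, under the other alternatives. Shares of all measured genes moved too. Those higher by this size made up 2.79% under the main setting and 4.43% to 5.10% after centring, quantile, trimmed-mean or control scaling. They made up 2.56% without a floor and 4.27% with the lowest floor. Those lower made up 11.6%, 6.45% to 7.46%, 10.5% without a floor and 16.1% with the lowest floor. The members' median log2 ratio was -0.62 with that floor and also without probe sets named _x_at, _s_at or _a_at, against 0.02, since 1 more or 1 fewer gene was then measured. With the floor at the 75th percentile 3 members were measured, and Dlx5 was at 0.29 and Msx2 at -0.05. Msx1 was at -1.88 as the mean of its probe sets and at -1.45 from the second alone. The Dlx3 ratio ran up to 3.06 with the lowest floor, so its size rests on the floor. Signal close to background limits Dlx2, Dlx3 and Dlx6.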

Other observations

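The coding genes next to the members in the RefSeq order were read as well; this comparison was chosen after the values were seen. Of 10 such neighbours outside the families, 7 were measured. Cytl1, a small secreted cartilage protein, lies next to Msx1 and was at 58.3 in Venus-negative and 2664 in Venus-positive cells, 45.7-fold higher, while Msx1 was 4.93-fold lower. Stx18, the neighbour of Msx1 on its other side, was at 307.8 and 310.7. Itga6, which lies next to Dlx2, was 2.07-fold lower (455.4 and 219.6). Itga3, which lies next to Dlx3, was at least 2.62-fold lower (59.0 and 18.9), while Dlx3 could only be counted as higher. Sdhaf3, beside Dlx5, and Sem1, beside Dlx6, had relative log2 ratios of -0.04 and 0.13, against 1.23 and 1.0 for that pair. Metap1d, next to Dlx1, was at 112.6 and 61.8.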
